A study of Homo sapiens with 18 samples.

Results

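The first numbered culture of every HEK line was set against the other numbered cultures of that line. HEK is an established human embryonic kidney cell line, and gene expression was measured on 18 Affymetrix arrays, 1 for each of 3 numbered cultures of 6 lines. The 6 arrays whose sample titles end in replicate 1 form one group, and the 12 arrays of replicates 2 and 3 form the other, so every line gives 1 array to the first group and 2 to the second. Of the 6 lines, A10, A30 and B21 are labelled ATXN1L-KO. ATXN1L wild type is the label of unedited parental cells and of N4 and N8, which are CRISPR controls. Per the labels the edited lines were treated with CRISPR, selected in puromycin and isolated as single colonies, so each is 1 clone. All lines were grown in DMEM with 10% fetal bovine serum, and the labels name no treatment that differed between the numbered cultures. The labels call the cultures biological triplicates but do not say what a replicate number marks, so the replicate number and any date or batch of culture, RNA extraction or array that went with it cannot be told apart. The p-values below measure only the spread between these arrays.

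Serum growth factors act through the MAPK cascade to switch on immediate early genes such as EGR1 and FOS within a short time, and the same cascade induces its own inhibitors, the Sprouty proteins and dual-specificity phosphatases. YAP, a coactivator that works with TEAD factors on genes such as CCN2 and ANKRD1, is known to be active in sparse, spread cells and held in the cytoplasm in dense ones. Growth signals also drive the nucleolar assembly of ribosomes, while p53 and FOXO factors are known to induce genes of growth arrest and starvation.

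Array-level measures were close. Array medians ran from 5.09 to 5.15 in replicate 1 and from 5.10 to 5.18 in replicates 2 and 3 (log2), a mean within-line difference of 0.0 (exact two-sided sign permutation test over 6 lines, p = 1.0, where the smallest possible p is 0.03125). The interquartile range was wider in replicate 1 by 0.0475 (exact p = 0.125), and the share of genes above the filter value of 5.60 was lower by 0.413 percentage points (exact p = 0.09375); their part in the results was not tested. ATXN1L signal ran from 7.20 to 7.61 on the 9 arrays labelled ATXN1L-KO and from 7.05 to 7.29 on the 9 wild-type arrays, so it was not lower where the label says knockout; the files do not place its probe set relative to the edited site. The replicate 1 array of A10 read unlike its line. CADPS2 read 6.66 on that array, against 4.73 and 4.96 on the other A10 arrays, EPHA7 read 8.23 against 6.26 and 5.92, and PLXDC2 read 6.11 against 4.54 and 4.66. Counts are therefore also given without the A10 line. Of the HEK marker list, 10 of 11 genes with a symbol passed the filter, with a list mean of 6.77 to 7.04 per array in replicate 1 and 6.77 to 6.98 in replicates 2 and 3. The mean of 9 leukocyte markers, of which 3 passed the filter, was 5.18 to 5.48 in replicate 1 and 5.32 to 5.59 in replicates 2 and 3. That of 5 fibroblast markers, of which 3 passed, was 4.94 to 5.26 in replicate 1 and 4.79 to 5.20 in the others, and that of 8 keratinocyte markers, of which 3 passed, was 4.80 to 5.09 and, in replicates 2 and 3, 4.91 to 5.09. CD14, LYZ, DCN, KRT5 and KRT14 did not pass. The leukocyte markers CD68, CD8A and SPI1, the fibroblast markers LUM, THY1 and FBLN1 and the keratinocyte markers KRT16, SFN and S100A9 did. In replicates 2 and 3 the mean was 7.31 for FBLN1, 7.27 for CD68, 6.53 for SFN and 6.43 for S100A9. The part of these markers in the results was not tested.

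With the line as a term in limma, 829 of 9686 genes tested were higher in replicate 1 (8.56%) and 971 were lower (10.0%), 1800 in all (18.6%), at a Benjamini-Hochberg adjusted p under 0.05. The changes were small: the median size of a called difference was 0.207 on the log2 scale, 32 genes were higher and 12 lower by at least 0.5, and 2 genes differed by at least 1. Of the tested genes, 578 were called higher and were higher in all 6 lines (5.97%), and 654 were called lower and were lower in all 6 (6.75%). Regardless of the call, replicate 1 lay above both other cultures of its line in all 6 lines for 317 genes (3.27%) and below both for 387 (4.0%). Without the A10 line, 614 genes were higher (6.34%) and 775 lower (8.0%), 1227 of the 1800 were called in both fits, and all 1800 kept their sign. The counts leaned most on N8: 439 genes were higher and 496 lower without that line, and 516 and 596 without its replicate 1 array alone. Without N4 they were 513 and 596, and without B21 they were 652 and 646. Some calls rest on dim signal: 41 genes called higher had a replicate 2 and 3 mean under the filter value of 5.60, and 47 called lower had a replicate 1 mean under it. Of these, 5 and 17 had no array of that group above 5.60, so they were tested only through the group where they are brighter. Among genes described below, FOS, IGFBP3, DUSP5, SPRY4, ETV5, ETV1, SHC3 and MT1F had a replicate 1 mean under 5.60, TAGLN had no replicate 1 array above it, MIRLET7F1 had a replicate 2 and 3 mean under it, and MIR454 had no array of replicates 2 and 3 above it.

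The replicate numbers were also set against each other in pairs. Replicate 1 against replicate 2 alone gave 796 genes higher and 601 lower (14.4% in all), and replicate 1 against replicate 3 alone gave 403 higher and 706 lower (11.4%); both use the same replicate 1 arrays. Replicate 2 against replicate 3, with 6 arrays each, gave 0 genes (0.0%) with limma after adjustment and 726 at an unadjusted p under 0.05, where replicate 1 against replicate 2 gave 3090 and replicate 1 against replicate 3 gave 2647. The difference of replicate 1 from the mean of replicates 2 and 3 was positively correlated between every pair of lines. Over the 15 pairs of lines, Pearson's r of these differences across 9686 genes ran from 0.165 to 0.514 with a median of 0.324. For replicate 2 minus replicate 3 it ran from −0.06 to 0.265 with a median of 0.065. These are correlations across genes, which are not independent replicates.

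**Figure D1:**
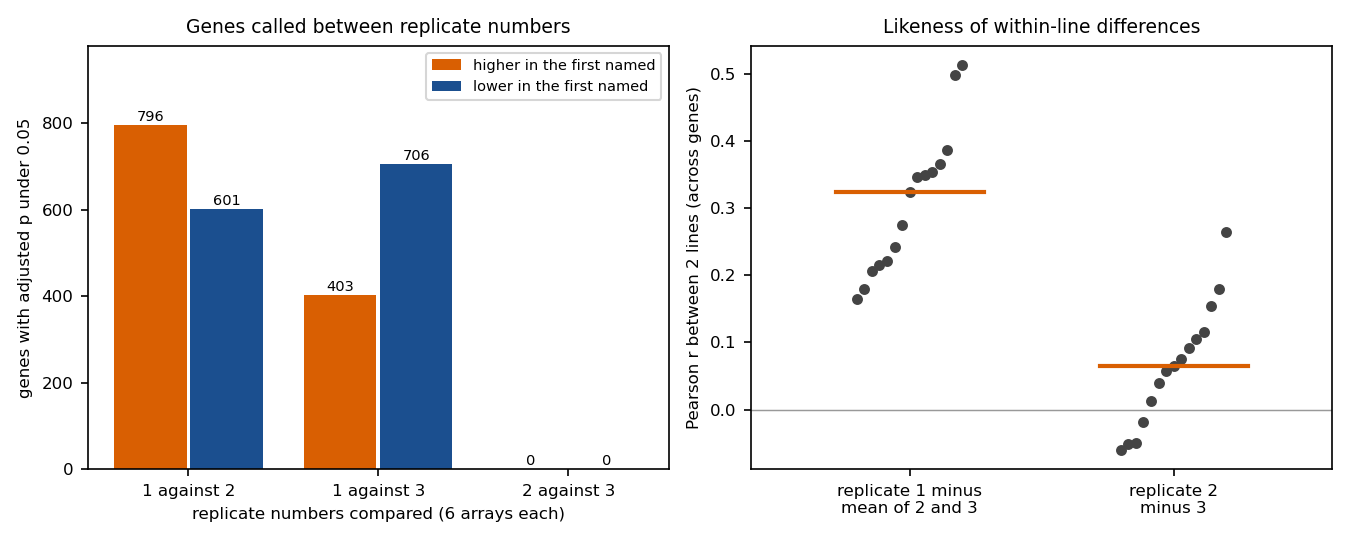
Left, the number of genes called by limma (adjusted p under 0.05) between each pair of replicate numbers, 6 arrays each, higher (orange) or lower (blue) in the first named; 1397 and 1109 genes were called in the pairs with replicate 1 and 0 between replicates 2 and 3. Right, each point is Pearson's r across genes between the within-line differences of 2 lines, and the bar is the median of 15 pairs, at 0.324 and 0.065.

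After removal of each line's mean, principal component 1 (32.0% of the variance) separated the replicate 1 arrays from the others. Replicate 1 scored from 4.27 to 13.1, and replicates 2 and 3 scored from −8.60 to 1.50, with 11 of the 12 below 0. The score of 1.50 belonged to replicate 3 of A30, and replicate 1 of A30 had the lowest replicate 1 score. Component 2 (14.0%) did not set replicate 1 apart. Replicate 1 scored above both other cultures in A10, between them in A30 and the parental line, and below both in N4, N8 and B21. Within every line replicate 3 scored above replicate 2 on this component. The gap was widest in A30, with −7.38 for replicate 2 and 7.69 for replicate 3, and narrowest in N8. This order was not tested.

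**Figure D2:**
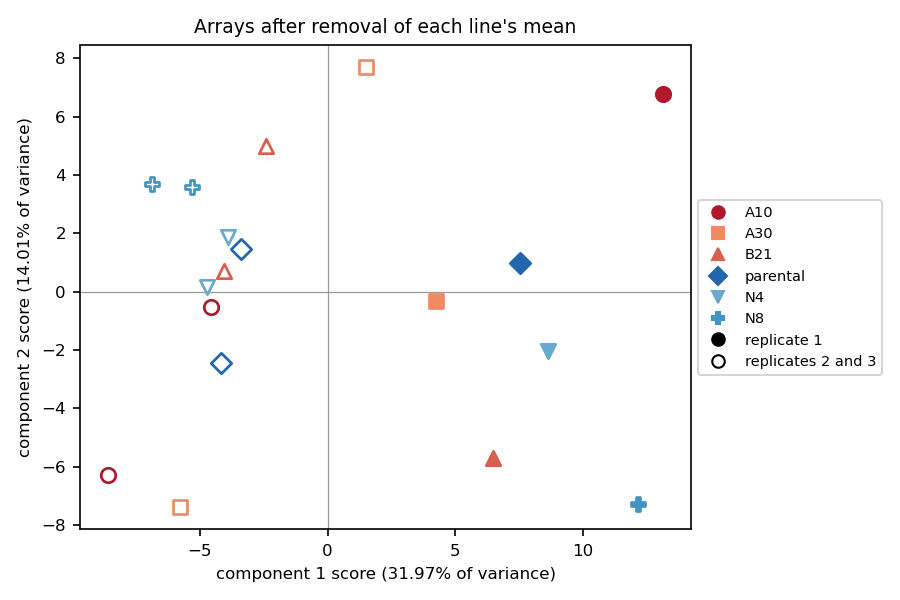
Scores of the 18 arrays on principal components 1 and 2 of the 9686 genes tested, after each line's mean was removed; filled symbols are replicate 1, open symbols replicates 2 and 3, and symbol shape and colour give the line. All 6 filled symbols lie to the right of all 12 open ones on the horizontal axis.

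Of 19 immediate early genes that passed the filter, of 23 with a symbol, 11 were lower in replicate 1 (57.9%) and 0 were higher. The median difference was −0.18 over the 19, beside −0.01 over all genes tested. Counts of this and later lists are to be read beside the 8.56% higher and 10.0% lower over all genes tested. Without A10 these shares were 6.34% and 8.0%, and without N8 439 and 496 of 9686 genes were called. EGR1, a zinc finger factor induced by serum, had the largest fall of all genes tested. Its signal ran from 5.57 to 6.61 in replicate 1, with a median of 6.07, and from 6.42 to 8.02 in replicates 2 and 3, with a median of 7.10, a difference of −1.10 ± 0.17 (limma SE, n = 6 and 12 arrays, adjusted p = 0.000844). Replicate 1 lay below both other cultures in 5 lines; in A30 it lay above both, by 0.14 from their mean. The difference was −0.905 in A10 and −0.915 in B21, beside −1.79 in the parental line, −1.83 in N4 and −1.29 in N8. A second, dimmer EGR1 probe set differed by −0.343.

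DUSP1, a phosphatase that shuts off MAP kinases, ran from 8.79 to 10.00 in replicate 1 with a median of 9.25, against 9.27 to 10.54 with a median of 10.07 in replicates 2 and 3. The group ranges overlapped, since lines differ in level, but replicate 1 was below both other cultures in all 6 lines (−0.64 ± 0.07, limma adjusted p = 0.000118). FOS, which pairs with JUN in the AP-1 factor, ran from 5.24 to 5.79 with a median of 5.48 in replicate 1, against 5.50 to 6.65 with a median of 6.01 in the others (−0.53 ± 0.10, limma adjusted p = 0.00192), below both in 5 lines. A second, dimmer FOS probe set differed by −0.121. FOSB fell by 0.35 ± 0.06 (limma adjusted p = 0.000844), although its second probe set differed by 0.007. The epidermal growth factor receptor ligand HBEGF fell by 0.33 ± 0.06 and the stress-response gene IER3 by 0.32 ± 0.05 (limma adjusted p = 0.00186 and 0.00129); of the probe sets of IER3, 5 with the same values differed by 0.075. FOSL1, SRF, MCL1, KLF4 and IER2 fell by 0.15 to 0.25. The list did not move as one: JUN differed by 0.14, JUNB and ATF3 by 0.09, KLF6 by 0.09, IER5 by 0.11 and MYC by −0.03, none past the threshold. Without A10 10 of the 19 were lower, and without N8 it was 7.

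Promoters of genes that fell are shown for the factors named above, from RefSeq on GRCh38.p14, with 250 bases before and 50 after the start of each gene, read 5′ to 3′ on the gene's strand. Capitals mark the CArG box, the letters that SRF is known to bind, in EGR1, and GGAATG, the core that TEAD factors are known to bind, in CCN2 and ANKRD1. The windows lie at chr5:138465229-138465528 on the plus strand for EGR1, chr6:131951323-131951622 on the minus strand for CCN2 and chr10:90921038-90921337 on the minus strand for ANKRD1.
EGR1: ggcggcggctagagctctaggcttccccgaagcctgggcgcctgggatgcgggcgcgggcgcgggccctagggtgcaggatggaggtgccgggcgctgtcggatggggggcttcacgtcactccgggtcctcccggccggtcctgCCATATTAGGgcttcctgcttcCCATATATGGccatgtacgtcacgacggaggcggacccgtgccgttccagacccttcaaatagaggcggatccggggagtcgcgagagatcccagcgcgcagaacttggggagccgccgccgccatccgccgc
CCN2: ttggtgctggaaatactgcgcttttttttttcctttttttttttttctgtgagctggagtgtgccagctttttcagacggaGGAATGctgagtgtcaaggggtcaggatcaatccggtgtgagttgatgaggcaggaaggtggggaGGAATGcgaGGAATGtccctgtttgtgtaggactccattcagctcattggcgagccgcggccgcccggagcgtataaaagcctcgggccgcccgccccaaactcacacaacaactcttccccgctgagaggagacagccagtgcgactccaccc
ANKRD1: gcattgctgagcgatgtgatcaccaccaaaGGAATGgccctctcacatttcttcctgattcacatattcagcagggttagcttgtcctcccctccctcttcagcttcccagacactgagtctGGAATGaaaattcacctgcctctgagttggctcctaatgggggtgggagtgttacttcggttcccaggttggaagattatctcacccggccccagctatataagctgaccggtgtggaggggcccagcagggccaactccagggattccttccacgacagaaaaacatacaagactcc
Searched on both strands, the CArG box occurred 2 times in the EGR1 window and 0 times in that of FOS, and was found in 2 of 13 immediate early genes tested that have a promoter in the table (15.4%). A box more than 250 bases before the start would lie outside the window, so the 0 for FOS does not mean that its promoter lacks one. It was found in 1.5% of the 798 genes called lower with a promoter there and in 1.11% of the 630 called higher, beside 1.02% of all 7563 tested genes with one and 1.29% of all 27305 promoters. The letters GGAATG occurred 3 times in CCN2 and 2 times in ANKRD1. They were found in 3 of 12 YAP and TEAD targets (25.0%), in 12.8% of genes called lower and in 11.3% of genes called higher, beside 10.8% of tested genes and 14.0% of all promoters. The DUSP1 window held 1 copy of the cyclic AMP element TGACGTCA, which was found in 3.88% of genes called lower and 3.49% of genes called higher, beside 3.21% of tested genes and 1.98% of all promoters. A match of letters does not show binding.

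Of the 15 YAP and TEAD target genes with a symbol, which all passed the filter, 6 were lower in replicate 1 and 0 were higher, with a median of −0.16. CCN2, a secreted matricellular protein, ran from 7.58 to 10.09 in replicate 1 with a median of 8.40, against 8.75 to 10.49 with a median of 9.84 in replicates 2 and 3 (−0.98 ± 0.20, limma adjusted p = 0.00355). It was below both other cultures in 5 lines, with differences of −2.145 in N8 and −1.625 in A10, while the difference in A30 was 0.0. Its second probe set differed by −1.304. ANKRD1, a muscle and stress-response protein that is a standard YAP reporter gene, ran from 6.44 to 9.73 with a median of 7.57 in replicate 1, against 7.22 to 10.15 with a median of 9.36 (−0.97 ± 0.22, limma adjusted p = 0.00829). It was below both others in all 6 lines, with differences of −2.39 in A10 and −1.91 in N8 but −0.13 in A30 and in the parental cells. Without A10 the difference was −0.685 (limma adjusted p = 0.0266) and without N8 it was −0.781 and did not pass (0.0513). The membrane-repair protein MYOF fell by 0.47 ± 0.09, the LIM protein AJUBA by 0.37 ± 0.07, the Hippo regulator AMOTL2 by 0.31 ± 0.07 and the insulin-like growth factor carrier IGFBP3 by 0.23 ± 0.07. AXL differed by 0.10 and AMOTL1 by 0.03, neither past the threshold. The count was 6 without A10, where 8.0% of all genes were lower, and 4 without N8, where 496 of 9686 genes were.

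Of the 11 SRF and MRTF cytoskeletal targets 4 fell as well (36.4%, beside 10.0% of all genes), and 0 rose. They were the actin-binding genes TAGLN2, CNN2 and TAGLN and the LIM gene FHL2. TAGLN had 0 replicate 1 arrays above 5.60, so it was tested only through replicates 2 and 3, where it was brighter. TAGLN2 remained called without A10 (−0.14, limma adjusted p = 0.0429), while CNN2 and TAGLN did not (0.0869 and 0.131), and 1 of the 11 was called in that fit, as in those without N4, N8 or the parental line; 2 were called without B21.

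With all lines in the fit, the CIC targets and MAPK feedback genes had the highest share of calls among the signalling lists. Of 12 tested, 9 were lower in replicate 1 (75.0%, beside 10.0% of all genes) and 0 were higher, with a median of −0.30. Among the 9, DUSP5, SPRY4, ETV5, ETV1 and SHC3 had a replicate 1 mean under 5.60. DUSP5, a phosphatase that acts on ERK in the nucleus, ran from 4.29 to 5.99 in replicate 1 with a median of 4.71, against 5.08 to 6.38 with a median of 5.44 (−0.54 ± 0.12, limma adjusted p = 0.00785). Its second, dimmer probe set differed by −0.193. SPRY4, a Sprouty inhibitor of receptor tyrosine kinase signalling, ran from 4.65 to 6.11 with a median of 4.935, against 5.10 to 6.17 with a median of 5.79 (−0.54 ± 0.11, limma adjusted p = 0.00403). Both were lower in all 6 lines, and A30 had the smallest difference of each, −0.03 and −0.025. The ETS factors ETV5, ETV4 and ETV1 fell by 0.45 ± 0.09, 0.43 ± 0.13 and 0.36 ± 0.09, SPRY2 by 0.32 ± 0.06, DUSP4 by 0.27 ± 0.09, DUSP7 by 0.26 ± 0.06 and the adaptor SHC3 by 0.24 ± 0.08. CCND1 differed by −0.13, GPR3 by −0.15 and EPHA4 by 0.10, none past the threshold. Without A10 6 of the 12 were lower, beside 10 of 19 immediate early genes, so the CIC list no longer had the highest share. Without N8 5 of the 12 were lower. ETV4, DUSP4 and SHC3 were not called without A10. ATXN1, a partner of CIC, was higher by 0.22 ± 0.07 (limma adjusted p = 0.0280), but not past the threshold without A10 (0.16, adjusted p = 0.0774). ATXN1L differed by −0.08 ± 0.04 (0.198) and CIC by 0.10 ± 0.04 (0.0899).

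**Figure D3:**
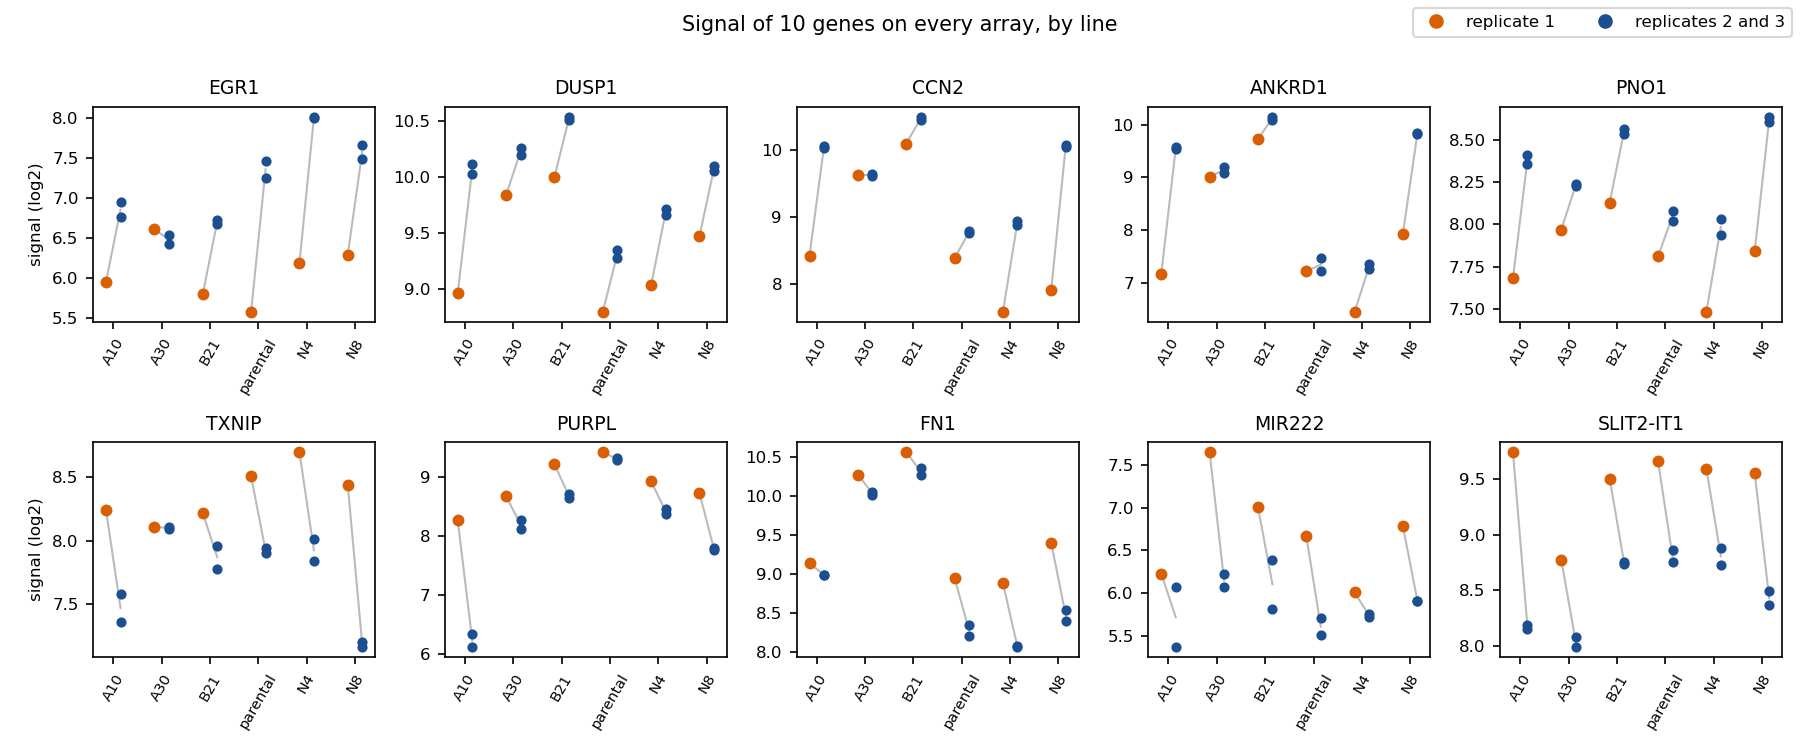
Signal (log2) of 10 genes on every array, by line; orange points are replicate 1, blue points replicates 2 and 3, and grey lines join replicate 1 to the mean of the other 2. In EGR1 and CCN2 the A30 points lie together while the other lines separate, and SLIT2-IT1 is higher in replicate 1 of all 6 lines.

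Genes of ribosome assembly fell together. Of 63 ribosome biogenesis factors tested, 49 were lower in replicate 1 and 0 were higher, with a median of −0.23; this list was chosen after the values were seen and is a description. PNO1, an assembly factor of the small ribosomal subunit, ran from 7.48 to 8.13 in replicate 1 with a median of 7.83, against 7.94 to 8.64 with a median of 8.30 in replicates 2 and 3, and was below both other cultures in all 6 lines (−0.49 ± 0.06, limma adjusted p = 0.000259). NOL6, RRS1, MRTO4, PAK1IP1, LTV1 and the tRNA methyltransferase gene METTL1 fell by 0.38 to 0.48, each below both other cultures in all 6 lines, as did the nucleolar protein CCDC86 (−0.52 ± 0.07). The list median was negative in all 6 lines, from −0.11 in the parental cells to −0.44 in N8, and 47 of the 63 were lower without A10 and 34 without N8. The ribosomal proteins themselves moved little: of 50, 5 were lower, 1 was higher, and their median was −0.0004. The share lower, 10.0%, was that of all genes tested, and 2.0% were higher, beside 8.56%. RPS15 fell by 0.16 ± 0.03 and RPL26L1 by 0.25 ± 0.05, and the 1 that rose was the p53 target RPS27L.

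Of 17 cytosolic aminoacyl-tRNA synthetase genes, which charge tRNAs with amino acids, 10 were lower and 0 higher (median −0.17, a list also chosen after the values were seen); 9 were lower without A10 and 5 without N8. YARS1 fell by 0.28 ± 0.05, MARS1 by 0.24 ± 0.04, KARS1 by 0.23 ± 0.04 and RARS1 by 0.22 ± 0.04. Of 16 amino acid stress genes, 7 were lower: the serine synthesis enzyme PSAT1 by 0.32 ± 0.04, ATF5 by 0.28 ± 0.06, the asparagine synthetase ASNS by 0.26, WARS1 by 0.21 ± 0.04, GARS1 by 0.18 ± 0.05, the master regulator ATF4 by 0.17 and SHMT2 by 0.12. Of these, WARS1 and GARS1 also stand in the synthetase list. The 7 are 43.8% of that list, beside 10.0% of all genes. Without A10 5 were lower and 1 higher, and 4 were lower without N4 and 3 without N8. TRIB3 differed by −0.08, PHGDH by −0.07 and SESN2 by 0.13, none past the threshold.

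Heat shock genes were lower in 8 of 11 (72.7%, beside 10.0% of all genes) and higher in 0, with a median of −0.21. HSPH1, a large chaperone of the HSP110 family, ran from 9.29 to 10.74 in replicate 1 with a median of 9.95, against 10.31 to 10.90 with a median of 10.44, and was below both other cultures in all 6 lines (−0.55 ± 0.08, limma adjusted p = 0.000537). The co-chaperones BAG3 and STIP1 fell by 0.29 ± 0.04 and 0.21 ± 0.03. HSPA1A and HSPA1B each fell by 0.26, but they are near-identical copies whose probes may read both. HSPB1 differed by 0.07 and HSPA4L by 0.06, neither past the threshold. The count was 8 without A10 and 5 without N4 or N8. Of the metallothioneins, metal-binding proteins also induced by stress, 3 of 4 tested were lower (chosen after the values were seen): MT1F by 0.74 ± 0.12, MT1X by 0.55 ± 0.08 and MT2A by 0.28 ± 0.06, while MT4 differed by 0.03. Of 9 unfolded protein genes, 1 was lower, SDF2L1 (−0.22 ± 0.07), and 0 were higher. That share of 11.1% lower is near the 10.0% of all genes.

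Of 27 G2 and mitosis genes, 8 were lower (29.6%, beside 10.0% of all genes) and 0 higher, with a median of −0.05. Cyclin A2, CCNA2, ran from 9.82 to 10.19 in replicate 1 with a median of 10.07, against 9.97 to 10.49 with a median of 10.38, and was below both other cultures in all 6 lines (−0.27 ± 0.04, limma adjusted p = 0.000506). The inhibitor of apoptosis BIRC5 and the mitotic activator CDC20 fell by 0.20 ± 0.04 and 0.18 ± 0.04, and cyclin B1, CCNB1, by 0.18. AURKA, CDK1 and TOP2A differed by −0.03, −0.04 and 0.06, none past the threshold. Without A10, B21 or N4 the count was 5, and without N8 it was 4. Of 26 S-phase genes, 2 were lower, CCNE1 by 0.20 ± 0.06 and GINS2 by 0.15 ± 0.05, a share of 7.69% beside the 10.0% of all genes; neither was called without A10. Glycolysis and hypoxia genes gave 2 of 19 lower, PGAM1 (−0.41 ± 0.05) and HK2 (−0.32 ± 0.07), and 0 higher, with a median of −0.08. The share lower was 10.5%, near the 10.0% of all genes.

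**Figure D4:**
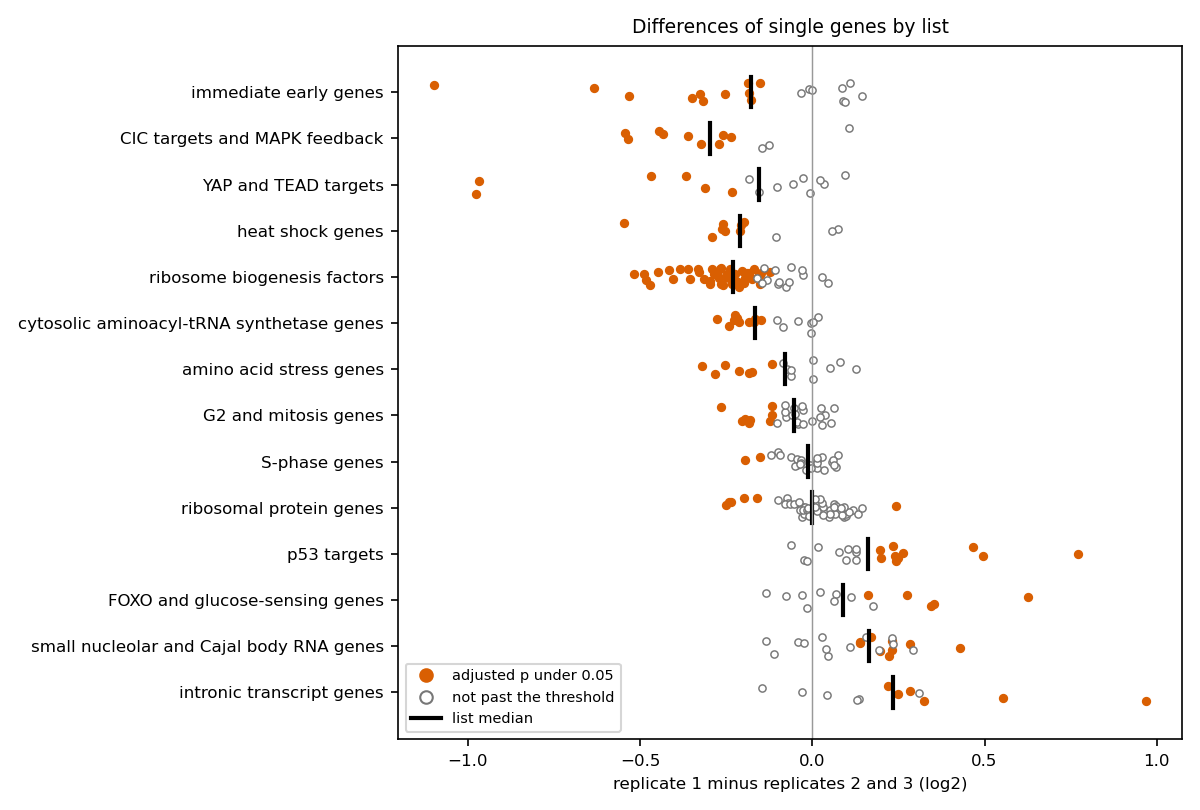
Difference of replicate 1 from replicates 2 and 3 (log2) for each tested gene of 14 lists; orange points passed an adjusted p under 0.05 in limma, open points did not, and black bars are list medians. The ribosome biogenesis, aminoacyl-tRNA synthetase and intronic transcript lists were chosen after the values were seen. List medians run from −0.30 for the CIC targets and MAPK feedback genes to 0.23 for the 12 intronic transcripts that passed the filter.

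Among the genes that were higher, p53 targets stood at 10 of 20 tested, with 0 lower and a median of 0.16. PURPL, a long non-coding RNA induced by p53, ran from 8.27 to 9.43 in replicate 1 with a median of 8.83, against 6.12 to 9.32 with a median of 8.33, and was above both other cultures in all 6 lines (0.77 ± 0.16, limma adjusted p = 0.00417). In A10 the rise was 2.04, and without A10 the difference was 0.518 (limma adjusted p = 0.00228). TP53INP1, a regulator of autophagy and apoptosis, rose by 0.49 ± 0.10 and SPATA18, a mitochondrial quality factor, by 0.47 ± 0.08. TP53I3, SESN1, RPS27L, GDF15, EDA2R, BAX and TRIAP1 rose by 0.20 to 0.26. GDF15, a stress cytokine, was higher in 4 of 6 lines and was not called without N4, N8, A30 or B21. RRM2B, SESN2 and SFN differed by 0.13, CCNG1 and PMAIP1 by 0.10 and PLK2 by −0.06, none past the threshold. The count was 8 without A10 and 7 without N8.

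Of 14 FOXO and glucose-sensing genes, 5 were higher (35.7%, beside 8.56% of all genes) and 0 lower, with a median of 0.09. In this list 4 were higher without A10 and 3 without N8. TXNIP, a thioredoxin inhibitor that limits glucose uptake, ran from 8.11 to 8.70 in replicate 1 with a median of 8.34, against 7.16 to 8.11 with a median of 7.87, so the groups met at 8.11 (0.63 ± 0.11, limma adjusted p = 0.00127). The rise was 1.26 in N8 and 0.01 in A30. Its relative ARRDC4 rose by 0.34 ± 0.06 and the stress-responsive SESN3 by 0.35 ± 0.06, both above the other cultures in all 6 lines, and KLHL24 and CCNG2 by 0.28 and 0.16. FOXO1 and FOXO3 differed by −0.03 and 0.02, neither past the threshold. The largest rises among protein-coding genes were FAXDC2, a fatty acid hydroxylase-like protein (0.84 ± 0.10), TMT1A, a thiol methyltransferase (0.82 ± 0.10), and ENPP2, the enzyme autotaxin that makes lysophosphatidic acid (0.70 ± 0.14, and 0.481 without A10).

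Fibronectin, FN1, was higher in replicate 1 of all 6 lines by 0.51 ± 0.08 (limma adjusted p = 0.00118), and its rise was the 1 difference that passed a test between genotype labels. FN1 ran from 8.89 to 10.57 in replicate 1 with a median of 9.27, against 8.06 to 10.37 with a median of 8.77. The rise was 0.15 in A10, 0.24 in A30 and 0.25 in B21, beside 0.67 in parental cells, 0.82 in the N4 clone and 0.93 in the N8 clone, so the lines of each label did not overlap (limma interaction −0.59 ± 0.08, adjusted p = 0.0333, 0.0103% of genes). Without A10 it was −0.562 and did not pass (limma adjusted p = 0.195). Fitted alone, the lines labelled ATXN1L-KO gave 2 genes higher and 1 lower, and the wild-type lines gave 505 and 463. The interaction is the test of that difference; 764 genes had an unadjusted interaction p under 0.05. For EGR1 the replicate 1 difference averaged −0.56 in the lines labelled ATXN1L-KO and −1.64 in the wild-type lines, which did not pass (limma interaction adjusted p = 0.339), although its differences in the 6 lines were not the same by the F test that follows. Over the 6 lines, limma's F test called 24 genes whose replicate 1 difference was not the same in all lines (0.248%). Of the genes named here 12 were among them: CCN2, ANKRD1 and TRIB1 (adjusted p = 0.000102, 0.000422 and 0.000745), BMP2, PURPL and EPHA7 (0.00534 each), EGR1 (0.00570), ENPP2 and PLXDC2 (0.0117 each), CADPS2 (0.0233), CNN2 (0.0440) and TMT1A (0.0485). Some of the 12 were named for their p in this test or after their values were seen, so that count is a description. A10 lay farthest from the median of the lines in 13 of the 24, A30 in 6, N8 in 4 and the parental line in 1, and without A10 3 genes were called.

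Non-coding genes were more often higher than lower in replicate 1. Of 457 long non-coding RNA genes tested, 82 were higher and 11 lower, of 197 transcribed pseudogenes 28 and 2, and of 295 microRNA genes 36 and 12, beside 673 and 946 of 8696 protein-coding genes. Over all 24316 probe sets tested, 2724 were higher (11.2%) and 1735 lower (7.14%). Those with no gene symbol leaned to higher: 1922 of 14000 were higher (13.7%) and 792 lower (5.66%), beside 802 (7.77%) and 943 (9.14%) of 10316 with a symbol. Of 94 intergenic long non-coding RNA genes 20 were higher and 3 lower. LINC01000, LINC01347 and LINC01061 rose by 0.37 ± 0.04, 0.34 ± 0.04 and 0.35 ± 0.04, each above both other cultures in all 6 lines. Of 12 genes named as intronic transcripts 6 were higher and 0 lower, and of 169 named as antisense transcripts 28 were higher and 6 lower; both lists were chosen after the values were seen. Without A10 15 intergenic, 5 intronic and 21 antisense genes were higher, and without N8 13, 4 and 17. With no filter on dim genes the medians of the intergenic and antisense lists were −0.0287 and −0.0121, below 0, and that of the 29 intronic transcripts was 0.0433, beside 0.23 over the 12 that passed. The files do not say whether the labelling kept strand, so signal of an antisense or intronic transcript and of its partner gene may not be told apart.

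SLIT2-IT1, an intronic transcript of the axon guidance gene SLIT2, had the smallest p of the genes tested. It ran from 8.77 to 9.74 in replicate 1 with a median of 9.57, against 7.99 to 8.88 with a median of 8.61, and was above both other cultures in all 6 lines (0.97 ± 0.08, limma adjusted p = 3.15e-05). The 2 groups overlapped only through A30, whose replicate 1 array read 8.77. SLIT2 itself rose by 0.40 ± 0.06 and the microRNA gene MIR218-1 in its intron by 0.70 ± 0.08, all in 6 of 6 lines. N4BP2L2-IT2 rose by 0.55 ± 0.07. Of the ZNF zinc finger genes, which encode DNA-binding factors, 49 of 380 were higher (12.9%) and 8 lower (2.11%), with a median of 0.05. Over all genes tested 8.56% were higher and 10.0% lower. ZNF711 rose by 0.51 ± 0.07, ZNF83 by 0.36 ± 0.06 and ZNF337 by 0.32 ± 0.05. Without A10 26 of the 380 were higher and 10 lower, with a median of 0.03. The share higher was then near that of all genes in that fit, 6.34%, while 8.0% of all genes were lower. Without N4 27 were higher and 5 lower, and without N8 25 and 3.

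Among the 22 small nucleolar and Cajal body RNA genes tested, which guide the modification of other RNAs, 9 were higher and 0 lower, with a median of 0.16. All 9 were Cajal body RNAs. How many of the 22 are nucleolar RNAs was not counted, so this is not a contrast with nucleolar RNAs. SCARNA3 ran from 5.93 to 6.62 in replicate 1 with a median of 6.09, against 5.32 to 6.14 with a median of 5.72 (0.43 ± 0.07, limma adjusted p = 0.000883), and SCARNA17 and SCARNA8 rose by 0.28 ± 0.05 and 0.23 ± 0.05. These 3 were above both other cultures in all 6 lines. Without A10, B21 or the parental line 5 of the 22 were higher, and without N8 4.

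Mature strands are shown for MIRLET7F1 and MIR222, with the largest rises of microRNA genes, and for those of the 8 with the smallest p that have one in the table, because the seed sets which messages a microRNA pairs with. They are from RefSeq on GRCh38.p14, 5′ to 3′, with the seed (bases 2 to 8) in capitals. The files do not say whether a probe set of a microRNA gene reads the mature strand, the hairpin or the host transcript.
hsa-let-7f-5p: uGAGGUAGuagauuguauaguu
hsa-let-7d-5p: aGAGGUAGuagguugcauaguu
hsa-miR-222-3p: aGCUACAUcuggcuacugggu
hsa-miR-218-5p: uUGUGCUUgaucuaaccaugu
hsa-miR-181b-5p: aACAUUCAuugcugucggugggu
hsa-miR-454-3p: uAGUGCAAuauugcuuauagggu
hsa-miR-622: aCAGUCUGcugagguuggagc
The let-7f and let-7d strands share the seed GAGGUAG, and these strands lie near each other on chromosome 9, at chr9:94176353-94176374 and chr9:94178841-94178862 on the plus strand. The other 5 seeds differ from it and from one another.

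MIRLET7F1, which encodes a let-7 family member known to restrain growth genes, ran from 4.84 to 6.95 in replicate 1 with a median of 5.94, against 3.27 to 5.66 with a median of 5.02 (1.03 ± 0.17, limma adjusted p = 0.00127). It was higher in all 6 lines and above both other cultures in 5. MIRLET7D rose by 0.47 ± 0.06, above both in all 6 lines. MIR222, whose product is known to target the cell cycle inhibitor p27, ran from 6.01 to 7.65 with a median of 6.72, against 5.37 to 6.39 with a median of 5.87 (0.85 ± 0.13, limma adjusted p = 0.000819), and its rise was largest in A30 (1.50). MIR181B1 rose by 0.67 ± 0.08 and MIR454 by 0.65 ± 0.10, while MIR622 fell by 0.42 ± 0.06, each in 6 of 6 lines. The levels of MIR454 in replicates 2 and 3 averaged 5.08, none above the filter value. MIR3143 rose by 0.57 ± 0.08 and MIR548K by 0.70 ± 0.14. MIR548I1 and MIR548I2, which rose by 0.49 ± 0.06 and 0.50 ± 0.06, belong to a family of near-identical copies whose probes may share signal. The median over all 295 microRNA genes tested was −0.02, beside −0.01 over all genes.

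MicroRNA genes often lie inside a longer host gene. Of the 48 called microRNA genes, 33 had a hairpin in the RefSeq table, and 14 of those that rose lay on the same strand inside a tested gene, 13 hosts in all. Of the 13 hosts 2 were called higher, SLIT2 and SVIL (0.28 ± 0.05, host of MIR604), and 0 lower. Over all genes tested 8.56% were higher and 10.0% lower, and so small a count cannot be told apart from these shares. MIR181A1HG, the host of MIR181B1, differed by 0.12 and did not pass the threshold. The microRNA genes here were picked for their own rise and the hosts were not, so no difference between them was tested. Without A10 26 microRNA genes were higher and 8 lower, without N4 27 and 5, without N8 27 and 7, and without the parental line 31 and 6.

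The direction of the calls followed the length of the gene. The 8696 protein-coding genes tested were cut into 5 equal groups by genomic length, with median lengths from 4.76 kb to 159 kb. Among the shortest, 4.08% were higher and 16.0% lower in replicate 1, and among the longest 13.9% were higher and 4.37% lower. The median difference was −0.05 in the shortest group and 0.04 in the longest, and −0.05 and 0.03 without A10. For replicate 2 minus replicate 3 the medians ran the other way, from 0.00 in the shortest to −0.04 in the longest. Calls of lower genes also grew with the mean level, from 4.66% in the dimmest of 5 groups by level to 19.6% in the brightest. Within the brightest 38.4% of the shortest genes and 6.16% of the longest were lower, and within the dimmest 5.01% and 2.89%. Genes of one length are not independent replicates, and these shares are descriptions.

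**Figure D5:**
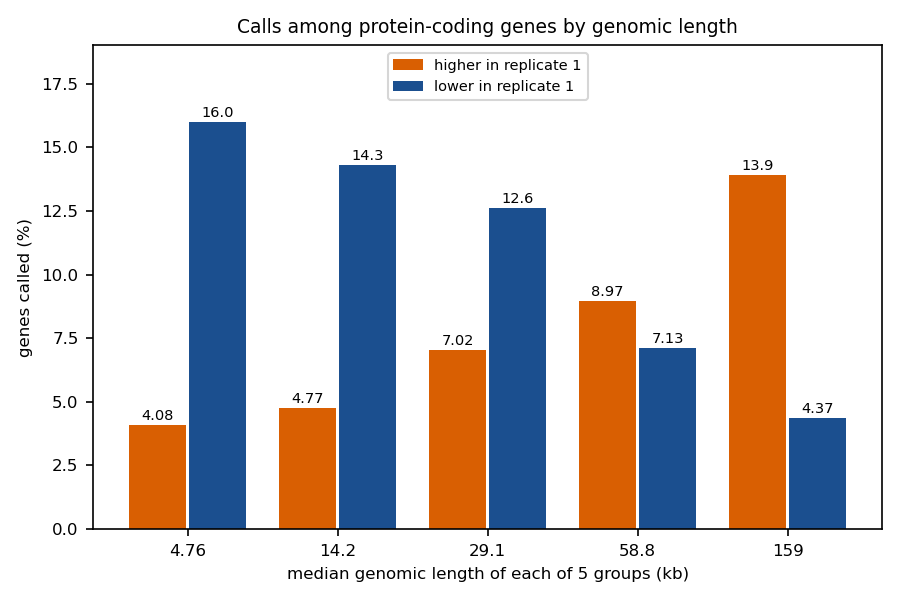
Share of protein-coding genes called higher (orange) or lower (blue) in replicate 1 than in replicates 2 and 3, in 5 equal groups by genomic length; labels under the bars give the median length of each group in kb. The share higher is 4.08% in the shortest group and 13.9% in the longest, and the share lower is 16.0% and 4.37%.

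Other lists held few called genes, to be read beside the 8.56% higher and 10.0% lower over all genes tested. Circadian clock genes gave 0 of 12 in either direction, cholesterol synthesis genes 1 higher (TM7SF2, 0.22 ± 0.05) and 1 lower (NSDHL, −0.23 ± 0.04) of 17, and oxidative phosphorylation genes 1 higher (COX5B, 0.23 ± 0.07) and 0 lower of 17. The median of the cholesterol list was 0.165 in A10, 0.05 in A30 and 0.095 in B21, against −0.11 in parental cells, −0.145 in N4 and −0.10 in N8. Lines labelled ATXN1L-KO gave 0 calls in it when fitted alone, but that fit called only 2 genes higher and 1 lower of 9686. That 0 can therefore not be read as a trait of this list. Wild-type lines gave 4 lower and 0 higher in it, beside 463 lower and 505 higher over all genes. The difference between the labels was not tested for the list. Interferon-stimulated genes gave 1 lower of 9 (IFIT5, −0.21 ± 0.07), NF-kappaB and chemokine genes 1 lower of 8 (IER3, also an immediate early gene), small nucleolar RNA host genes 1 lower of 9 (SNHG16, −0.13 ± 0.04) and matrix and TGF-beta genes 1 higher (FN1) and 2 lower (THBS1, −0.40 ± 0.11, and SMAD7, −0.25 ± 0.08) of 11 (9.09% and 18.2%). Without A10 the matrix list gave 3 higher and 1 lower, and the interferon and oxidative phosphorylation lists gave 0. Of 10 HEK markers, KRT18 fell by 0.40 ± 0.06 while the neuronal MAP2 and the HOX gene HOXD10 rose by 0.37 ± 0.08 and 0.15 ± 0.04 (20.0% higher). None of the 3 leukocyte or 3 keratinocyte markers tested was called, and of 3 fibroblast markers FBLN1 rose by 0.25 ± 0.06.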

How the data were processed

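Total RNA from 18 cultures, extracted with the Qiagen miRNeasy kit and labelled with biotin per the labels, was measured on 1-colour Affymetrix arrays. The deposited values are log2 signals, 1 per probe set and array, made by the authors in Affymetrix Expression Console, per the submitters' processing notes; for its version, algorithm and settings, none is given in the sources used here. Values lay between 0.57 and 14.84, from which the log2 scale was taken. They were used as deposited, with a pseudocount of 0 and no detection flags, and precision is limited by the number of arrays.

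Of 53617 probe sets, 16098 had 1 gene symbol in the platform annotation, 0 had several and 37519 had none, and 0 symbols needed updating through RefSeq. Of 14884 genes, 779 had more than 1 probe set and were read from the one brightest on average over the 18 arrays. Testing was limited to the 9686 genes above 5.60 on at least 3 arrays, a value at the 40th percentile over genes with a symbol. limma 3.58.1 in R 4.3.3 was fitted with the line and replicate 1 as terms, two-sided, and p-values were adjusted by Benjamini-Hochberg over all genes tested, with calls at an adjusted p under 0.05. Errors of differences are limma standard errors. Replicate 2 against 3, the interaction with the genotype label and an F test over the 6 within-line differences were fitted likewise. On simulated data with 200 changed genes among 9686, the comparison of replicate 1 recovered 96.4% of changes of 0.5 and 100% of changes of 1 (log2), with 3.92% false calls. Only changes of these sizes were planted, with noise drawn independently for each gene and array. Changes near 0.207, the median size of a called difference, were not simulated, so the recovery and false calls at that size are not known.

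The grouping, the gene lists and the naming rule were chosen with earlier results of these data known. Named genes were the 10 largest rises and 10 largest falls that were called and shared by all 6 lines, all called immediate early, YAP, p53 and CIC-list genes, 8 called microRNA and small RNA genes each, up to 3 genes of every other list by p, 4 for each test between lines, and ATXN1L, ATXN1 and CIC. The ribosome biogenesis, metallothionein, tRNA synthetase, intronic and antisense lists and their genes, PLXDC2, CADPS2, EPHA7, the genes said to miss the threshold, KLHL24, CCNG2, FHL2, CCNB1, HSPA1A, HSPA1B, ASNS, ATF4, SHMT2, SLIT2, SVIL and MIR181A1HG were named after their values were seen. Replication-dependent histone genes had 0 symbols on the array. Other probe sets of CCN2, EGR1, FOS, FOSB, DUSP5 and IER3 are given with those genes. The second probe set of CNN2 differed by −0.192 and a dimmer one of LINC01000 by 0.107, neither past the threshold over all probe sets. Not every other probe set of a named gene is given. Genomic lengths, hosts and sequences came from RefSeq. Alternatives covered the filter, normalisation, probe set, variance model, line term, unit of replication, thresholds, genotype subsets, and each line and array left out. Figures were drawn with matplotlib 3.10.9 in Python 3.11.15, with pandas 2.3.3 and numpy 2.4.6.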

Additional observations from a re-analysis of the deposited data

Results flagged for a closer look

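Of the 134 named genes, 4 had 1 line far from the other 5 in the within-line difference of replicate 1 from replicates 2 and 3 by Dixon's test, where chance gives about 1 in 20. DUSP1 fell by 1.115 in A10, against falls of 0.39 to 0.655 in the others. TRIB1, a pseudokinase gene, differed by 1.445 in A10 and by −0.67 to −0.035 elsewhere, and without A10 it was lower (−0.339, limma adjusted p = 0.00758). RPS15 fell by 0.25 in A10, against 0.125 to 0.17 in the other lines. BIRC5 differed by −0.40 in N8 and by −0.19 to −0.115 in the other lines. Differences between lines passed limma tests for 13 genes named in the text. Of the 12 that passed the F test, 9 are among the 134, while PLXDC2, CADPS2 and EPHA7 were named after their values were seen. The naming rule takes the 4 smallest p of each test between lines, so these counts are descriptions. The replicate 1 rise of FN1 was smaller in lines labelled ATXN1L-KO than in wild-type lines, with an interaction of −0.593 (limma adjusted p = 0.0333). The F test among lines passed for CCN2 (adjusted p = 0.000102), ANKRD1 (0.000422), TRIB1 (0.000745), BMP2, PURPL and EPHA7 (0.00534 each), EGR1 (0.0057), ENPP2 and PLXDC2 (0.0117 each), CADPS2 (0.0233), CNN2 (0.044) and TMT1A (0.0485). The replicate 1 difference of BMP2 was −1.07 in A10 and 0.44 in the parental cells.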

How the results depend on the processing

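No paired analysis was possible because a term for the replicate number would be the comparison itself; arrays were matched by line, as a term in the fit or, as an alternative, as 1 difference per line. Called genes numbered 829 higher and 971 lower. They were 2724 and 1735 over every probe set, 120 and 123 with no line term, 408 and 388 on the 6 within-line differences, 343 and 402 at an adjusted p under 0.01, and 32 and 12 at a difference of at least 0.5. Against replicate 3 alone 403 were higher, and against replicate 2 alone 601 were lower. Wild-type lines alone gave 505 and 463, and lines labelled ATXN1L-KO alone 2 and 1. Leaving out 1 line gave 439 to 933 higher and 496 to 1064 lower, with 513 and 596 without N4, 439 and 496 without N8, and 646 lower without B21. Leaving out 1 array gave 516 to 1041 higher and 596 to 1051 lower, the lowest without replicate 1 of N8. No filter gave 628 and 730, a stricter filter 853 and 1026, quantile normalisation 961 and 950, median centring 856 and 1092, a trended robust variance 927 and 1078, and the line as a random block 775 and 935. The genotype interaction called 1 gene, 0 with no filter and 2 with a trended robust variance. The F test among lines called 24, and 8, 175 and 3 with no filter, a trended robust variance and without A10. Replicate 2 against 3 gave 0 in each of 4 alternatives. The cause of these shifts was not tested.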
